A study of Homo sapiens with 32 samples.

Results

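Androgen and retinol metabolising enzymes were followed in 2 prostate cancer cell lines, through ER stress and through loss of the enzyme MOCOS. The set holds 8 genes, SRD5A1, SRD5A3, UGT2B15, UGT2B17, HSD17B4, HSD17B8, HSD17B11 and RDH11. They were taken by gene symbol from the authors' table of 29744 genes. Each symbol stood in 1 row, and all 8 passed the filter on low counts in both lines.

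Prostate cells turn testosterone into the stronger androgen dihydrotestosterone with steroid 5-alpha-reductases, of which SRD5A1 is one. SRD5A3 carries the same family name, and its best known work is the reduction of polyprenol to dolichol, the lipid that carries the sugar chains of N-glycosylation in the ER. UGT2B15 and UGT2B17 end the signal by joining glucuronic acid to dihydrotestosterone and its products, which are then excreted. The HSD17B genes encode hydroxysteroid 17-beta dehydrogenases with different sites: HSD17B4 is the bifunctional enzyme of peroxisomal beta-oxidation, HSD17B8 is a subunit of a reductase of mitochondrial fatty acid synthesis, and HSD17B11 sits on lipid droplets and oxidises androstanediol. RDH11 is an ER membrane enzyme that reduces retinal to retinol, is abundant in prostate epithelium and is known to respond to androgen.

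LNCaP is a human line from prostate cancer that responds to androgen, and the castration-resistant C4-2B was derived from it. Polyadenylated RNA was sequenced from 32 strand-specific libraries in 8 groups of 4. Within each line the groups were cells with a control siRNA (siCTRL) and vehicle, siCTRL cells with thapsigargin (TG), cells with siRNA against MOCOS (siMOCOS) without TG, and siMOCOS cells with TG. TG blocks the calcium pump of the ER and causes ER stress, and MOCOS encodes the sulfurase that completes the molybdenum cofactor of xanthine dehydrogenase. All cells grew in medium with fetal bovine serum, and the labels name no added androgen. How much TG was given, and for how long, is not stated in the labels. The siMOCOS groups pool 2 siRNAs with 2 libraries each. The table numbers the siMOCOS columns 1 to 4 without naming the siRNA, so a number here only names a library.

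Library totals ran from about 7510000 to 27100000 estimated counts. Within a line and TG state, all siMOCOS libraries lay below all siCTRL libraries for MOCOS, with a log2 change of -3.21 in C4-2B and -2.72 in LNCaP without TG. DDIT3, a transcription factor of the ER stress response, rose with TG in siCTRL cells by log2 2.84 in C4-2B and 3.31 in LNCaP. Of 9 luminal prostate markers 9 averaged over 10 CPM (counts per 1000000 of the TMM-scaled library total), and of 4 basal markers 0 averaged over 1 CPM. Liver markers were searched because liver expresses several of the 8 genes, and among 4 of them only TTR averaged over 1 CPM. Of 5 neuroendocrine markers 1 did so, SYP, at 1.11 to 20.1 CPM. Of 8 immune, stromal, endothelial and blood markers 3 did so, and the highest was COL1A1 at 3.07 to 21.4 CPM. The siMOCOS libraries stood apart in pairs in all 4 siMOCOS groups: libraries 1 and 2 resembled each other, as did 3 and 4. The correlation of log2 CPM across genes was 0.981 to 0.992 within these pairs and at most 0.978 across them. Whether the pairs are the 2 siRNAs was not tested, since no label gives it. Knockdown changes of the 8 genes are therefore given over all 4 libraries, and also without either pair wherever that changes a call. Those of related genes are mostly given over all 4 only.

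Several of the genes lie on chromosome 4, and their promoters differ in kind. In GRCh38.p14 SRD5A3 spans chr4:55346242-55373100 on the plus strand, and on the minus strand lie UGT2B17 at chr4:68537173-68576322, UGT2B15 at chr4:68646597-68670652 and HSD17B11 at chr4:87336515-87391188. SRD5A1 lies at chr5:6633440-6674386 and HSD17B4 at chr5:119452497-119542332, both on the plus strand. HSD17B8 lies at chr6:33204655-33206831 on the plus strand and RDH11 at chr14:67676800-67695764 on the minus strand. Promoter sequence was matched in RefSeq (GRCh38.p14) for 7 of the 8 genes, all but UGT2B17. The 250 bases before the start are shown for the 3 genes that the results below turn on most. They read 5′ to 3′ on the gene's strand, and capitals mark matches to the motifs searched. The intervals are chr14:67695765-67696014 for RDH11, chr4:68670653-68670902 for UGT2B15 and chr4:55345992-55346241 for SRD5A3.
RDH11: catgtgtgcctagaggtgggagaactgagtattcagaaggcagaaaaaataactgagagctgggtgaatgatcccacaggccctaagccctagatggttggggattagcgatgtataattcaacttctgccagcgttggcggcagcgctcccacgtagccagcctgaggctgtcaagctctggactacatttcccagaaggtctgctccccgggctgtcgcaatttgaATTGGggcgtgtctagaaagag
UGT2B15: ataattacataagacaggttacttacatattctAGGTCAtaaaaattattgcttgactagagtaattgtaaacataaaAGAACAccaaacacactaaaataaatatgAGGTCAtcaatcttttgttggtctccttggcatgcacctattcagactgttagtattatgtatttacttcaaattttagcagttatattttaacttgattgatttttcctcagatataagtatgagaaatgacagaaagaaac
SRD5A3: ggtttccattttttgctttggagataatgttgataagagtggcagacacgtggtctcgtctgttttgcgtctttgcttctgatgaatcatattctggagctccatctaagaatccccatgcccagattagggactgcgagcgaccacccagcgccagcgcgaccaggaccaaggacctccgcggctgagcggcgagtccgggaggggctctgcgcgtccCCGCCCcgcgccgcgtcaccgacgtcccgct

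UGT2B15 held 2 matches to AGGTCA, the core hexamer of many nuclear receptor sites, and 1 match to TGTTCT (read as AGAACA on the strand shown), a hexamer of steroid hormone response elements. AGGTCA occurred in 12.1% and TGTTCT in 12.4% of 35116 RefSeq promoter windows of this length, and neither occurred in the other 6 matched genes. RDH11 held a single match to CCAAT (read as ATTGG), a motif found in 32% of windows and also in HSD17B8 and HSD17B11. SRD5A3 held a single GC box, GGGCGG (read as CCGCCC), found in 42.6% of windows and also in SRD5A1, HSD17B4 and HSD17B8. The other letters searched, on both strands and with overlaps counted, were TATAAA (10.7% of windows), GTTAAT of HNF1 sites (6.23%), TCACNCCAC of sterol elements (0.883%), TGACGTGG of XBP1 and ATF6 sites (0.612%) and TGATGNAAT of ATF4 sites (0.888%). None of these 5 occurred in the 7 windows.

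UGT2B15 and UGT2B17 are near-identical copies, which limits how far their counts can be told apart. Their GENCODE v29 coding sequences are each 1590 bases long and differ at 55 bases, an identity of 96.54%, and the longest run without a difference is 199 bases. Of the 31-base words of either transcript, 37.1% also occur in the other. The stretch with the most differences, bases 242 to 301 of the coding sequence, is shown with the 9 differing bases in capitals.
UGT2B15: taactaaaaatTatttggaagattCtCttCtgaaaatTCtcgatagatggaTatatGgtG
UGT2B17: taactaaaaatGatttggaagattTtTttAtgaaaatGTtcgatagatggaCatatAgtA
Reads from shared stretches are divided between the 2 genes by the authors' counting, so each value below is uncertain by that division.

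With TG in siCTRL cells of C4-2B, 2 of the 8 genes were called (adjusted p under 0.05 over all genes tested). One rose, UGT2B15, and one fell, RDH11, against a background of 40.5% of all genes called, 21.2% higher and 19.3% lower. In LNCaP 1 gene was called, RDH11, which fell, against 49.7% of all genes, 24.6% higher and 25.1% lower. With knockdown of MOCOS without TG, 2 were called in C4-2B, RDH11 higher and UGT2B15 lower, against 17.2% of all genes, 9.09% higher and 8.14% lower. In LNCaP 1 was called, RDH11, which rose, against 15.7%, with 6% higher and 9.73% lower. With knockdown in the presence of TG the same 2 genes were called in C4-2B (background 16.8%) and RDH11 alone in LNCaP (21.9%). With TG in siMOCOS cells, SRD5A1 rose and RDH11 fell in C4-2B (37.9%), and RDH11 fell in LNCaP (47.0%). The shares called with TG are thus below the background in both lines, but with 8 genes this difference was not tested. In siCTRL cells of C4-2B the number called with TG ran from 0 to 2 when a library was left out. The median log2 change of the 8 genes with TG in siCTRL cells was -0.0047 in C4-2B and -0.35 in LNCaP, where the median of all genes was -0.0091 and -0.04. TG and knockdown are each compared with the same siCTRL libraries within a line, so their values are given side by side only. These are bulk libraries, and fewer cells of a kind cannot be told apart from less RNA per cell.

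**Figure D1:**
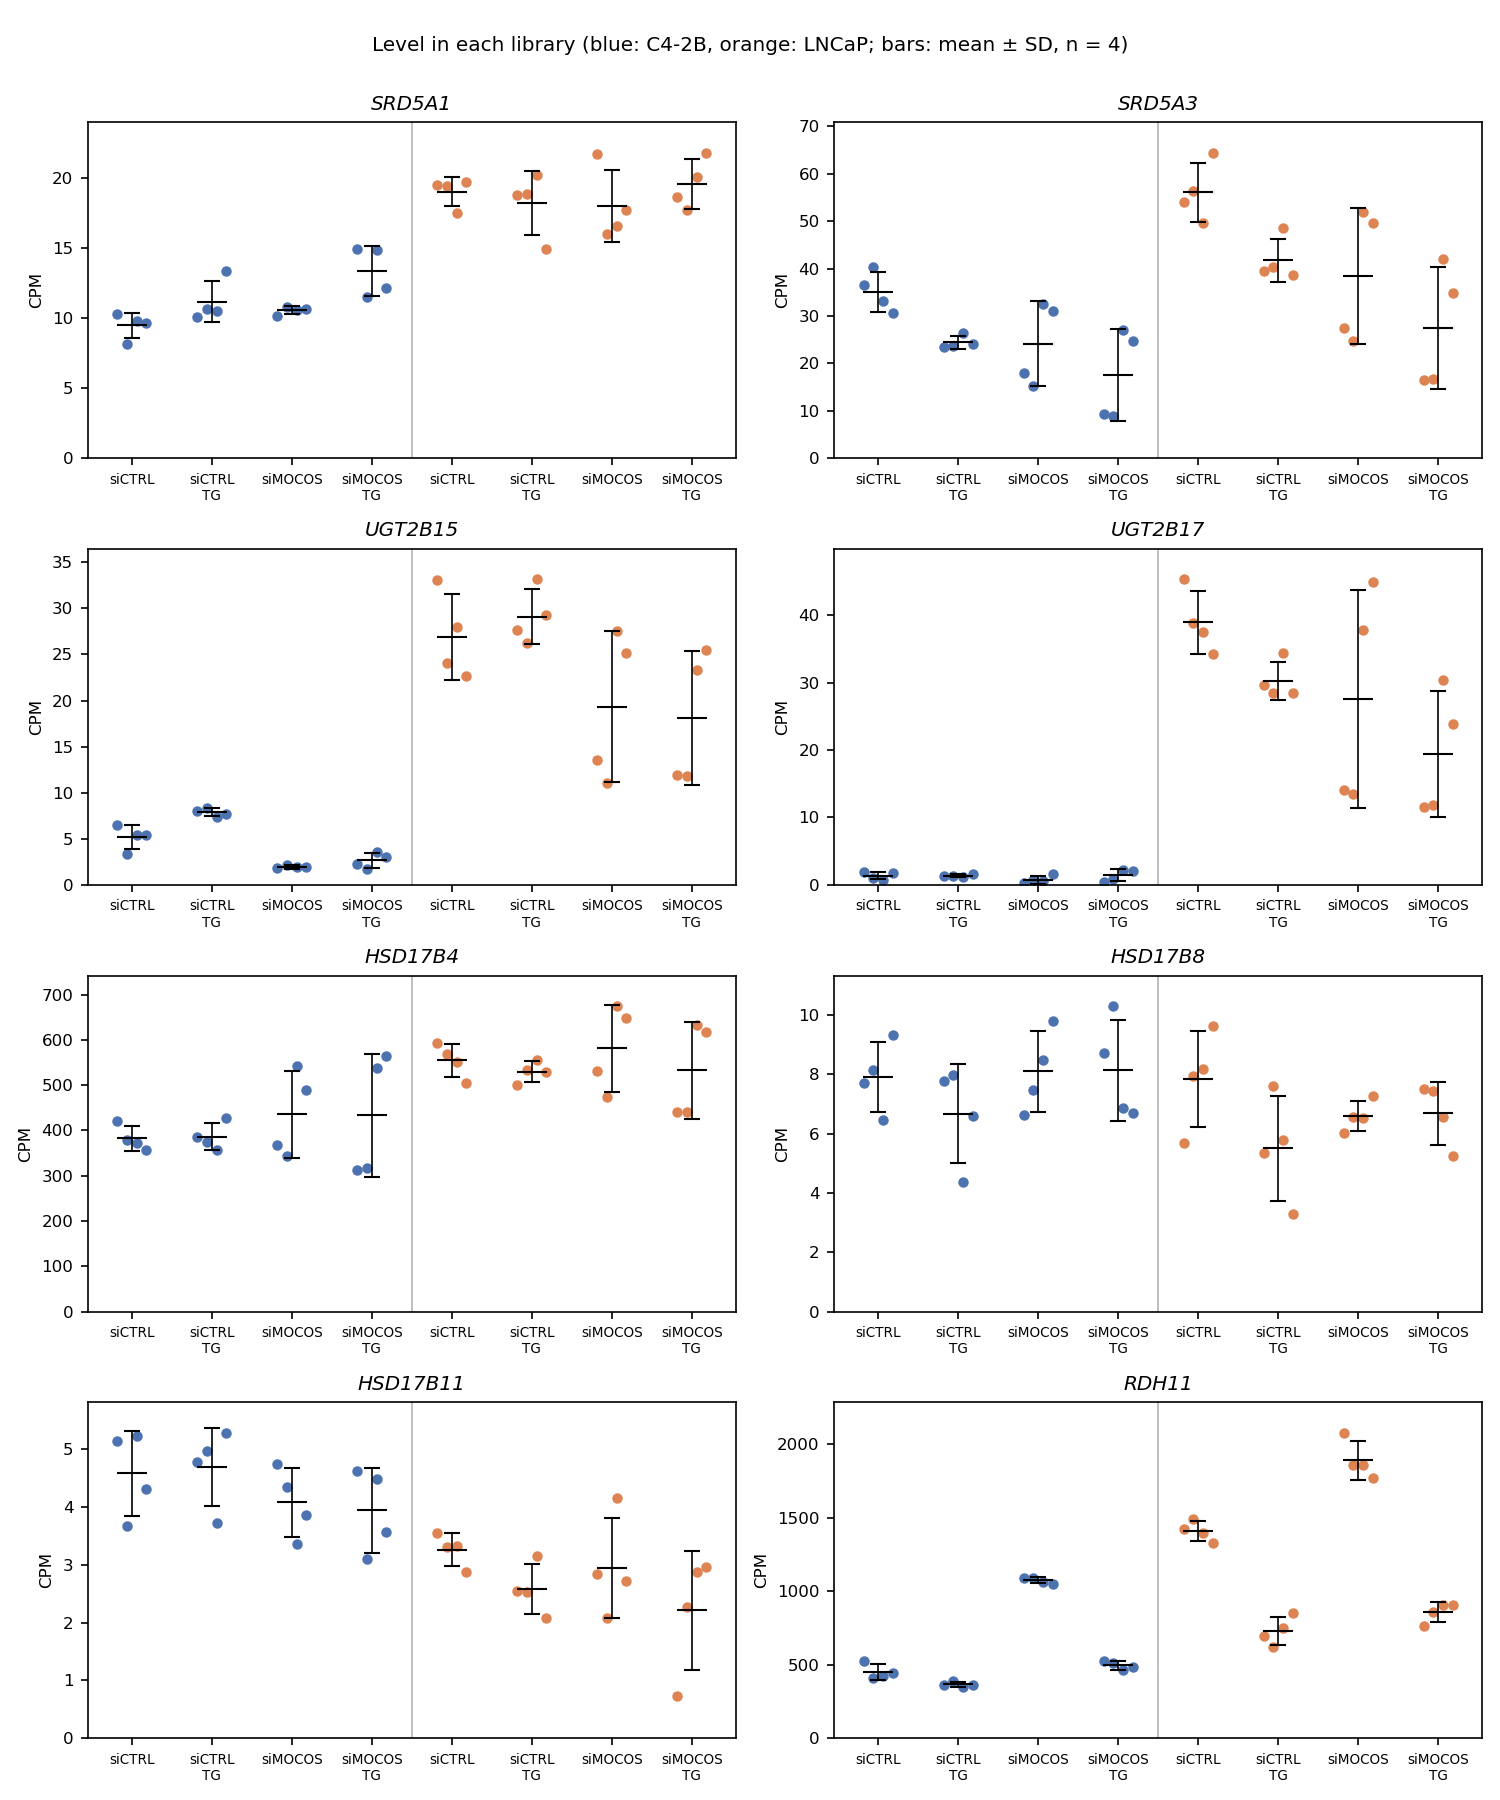
Level of each of the 8 genes in CPM (y axis, from 0) in every library of the 8 groups (x axis), C4-2B in blue and LNCaP in orange, with the group mean and SD (n = 4). RDH11 runs from 348 to 2077 CPM and is lowest in C4-2B with TG, SRD5A3 splits into pairs in every siMOCOS group, and UGT2B17 stays at or below 2.24 CPM in C4-2B.

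RDH11 gave the clearest pattern of the set: it was higher in LNCaP than in C4-2B, fell with TG and rose with MOCOS knockdown in both lines. In siCTRL cells of C4-2B the 4 libraries stood at 526, 409, 425 and 442 CPM, and with TG at 364, 391, 348 and 362 CPM. The groups did not overlap, and the fall was log2 -0.30 (SE 0.10, adjusted p = 0.0206), or 1.23-fold. The call was lost without siCTRL replicate 1 (0.0706) or 4 (0.0512). In LNCaP the siCTRL libraries stood at 1420, 1488, 1396 and 1327 CPM and those with TG at 695, 621, 747 and 849 CPM. Every TG library there was far below every control, a fall of log2 -0.95 (SE 0.09, adjusted p = 1.84e-07), or 1.93-fold. The response to TG differed between the lines, LNCaP minus C4-2B -0.65 on the log2 scale (SE 0.13, adjusted p = 0.00904), in a test that called 0.848% of all genes and 1 of the 8.

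Knockdown of MOCOS raised RDH11 most in C4-2B, where the siMOCOS libraries stood at 1089, 1091, 1065 and 1051 CPM. Each was over the highest control, and the group means were 1074 ± 19.8 and 450 ± 52.0 CPM (SD, n = 4 each). The rise was 2.37-fold, log2 1.24 (SE 0.10, adjusted p = 1.66e-07). In LNCaP the siMOCOS libraries stood at 2077, 1860, 1857 and 1767 CPM, again all above the controls, and the rise was smaller, log2 0.40 (SE 0.09, adjusted p = 0.00636) or 1.32-fold. The knockdown effects differed between the lines (LNCaP minus C4-2B -0.83, SE 0.13, adjusted p = 0.00196). That test called 0.157% of all genes and 1 of the 8. Without libraries 1 and 2 the rise was log2 1.22 in C4-2B and 0.39 in LNCaP, and without 3 and 4 it was 1.29 and 0.51, called in each case.

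With TG present the siMOCOS libraries of C4-2B stood at 524, 515, 461 and 482 CPM, above all siCTRL libraries with TG. The rise was log2 0.46 (SE 0.10, adjusted p = 0.00293), and it was called without either pair. Those of LNCaP stood at 762, 858, 909 and 905 CPM and overlapped the siCTRL libraries with TG. That rise, log2 0.26 (SE 0.09, adjusted p = 0.0488), was lost when 14 of the 16 libraries of the line were left out in turn, with adjusted p up to 0.230. It was kept only without siCTRL TG replicate 4 or siMOCOS replicate 1. Within siMOCOS cells TG lowered RDH11 by log2 -1.08 in C4-2B (SE 0.10, adjusted p = 2.96e-07) and -1.09 in LNCaP (SE 0.09, adjusted p = 3.76e-08). The interaction, which subtracts the knockdown effect without TG from that with it, was log2 -0.78 in C4-2B (SE 0.14, adjusted p = 0.0495). It was 1 of 10 genes so called there, 0.0708% of those tested. The call was lost without siMOCOS libraries 1 and 2 (-0.84, adjusted p = 0.141). With single libraries left out it was kept only without siCTRL replicate 1 or 4, and lost without each of the other 14 libraries of the line, with adjusted p up to 0.140 and values from -0.86 to -0.74. In LNCaP the interaction was -0.14 (95% interval -0.41 to 0.13, adjusted p = 0.923), and by edgeR 0 of the 8 were called there, 0 had an unadjusted p under 0.05, and DESeq2 and limma voom also called 0. That test called 0.00724% of all genes.

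In order of mean level RDH11 stood at 366 ± 17.9 CPM in C4-2B siCTRL with TG, then 450 ± 52.0 in siCTRL, 496 ± 29.2 in siMOCOS with TG and 1074 ± 19.8 in siMOCOS. In LNCaP the order was 728 ± 95.6 in siCTRL with TG, 858 ± 68.5 in siMOCOS with TG, 1408 ± 66.7 in siCTRL and 1890 ± 132 CPM in siMOCOS (SD, n = 4 each). In C4-2B the untreated siCTRL group and the siMOCOS group with TG overlapped, since siCTRL replicate 1 at 526 CPM was above all 4 of the latter.

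Other genes of retinoid metabolism and signalling did not share one direction. Of 35 listed, 17 were tested in C4-2B, where 4 rose and 5 fell with TG in siCTRL cells. In LNCaP 13 were tested, of which 2 rose and 5 fell. Over all genes 21.2% rose and 19.3% fell in C4-2B, and 24.6% and 25.1% in LNCaP. The list's median was -0.25 and -0.36. RXRA, a partner receptor of the retinoic acid receptors, fell by log2 -1.22 in C4-2B (SE 0.21, adjusted p = 0.000184) and -1.44 in LNCaP (SE 0.14, adjusted p = 1.76e-07). ALDH1A3, which makes retinoic acid from retinal, fell by -1.04 (adjusted p = 0.000366) and -1.16 (adjusted p = 3.16e-05). Against 17.2% of all genes in C4-2B and 15.7% in LNCaP, 1 gene of the list was called in each line with knockdown without TG. It was RDH12, a retinal reductase related to RDH11, which rose by log2 2.51 in C4-2B (SE 0.59, from a mean of 0.204 to 1.13 CPM, adjusted p = 0.00565) and 1.58 in LNCaP (SE 0.26, from 0.766 to 2.36 CPM, adjusted p = 0.000510). At baseline 3 of 17 were higher and 7 lower in LNCaP, where 21.1% of all genes were higher and 20.1% lower. Among the 7 were DHRS3, another retinal reductase (-1.23, adjusted p = 2.11e-07), and the receptors RARA (-1.25) and RARG (-1.16).

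UGT2B15 was lower in C4-2B than in LNCaP and fell in C4-2B when MOCOS was knocked down. The siCTRL libraries of C4-2B stood at 6.53, 3.33, 5.42 and 5.46 CPM, and the siMOCOS libraries at 1.77, 2.20, 1.89 and 1.90 CPM. No siMOCOS library reached the lowest control, and the fall was log2 -1.43 (SE 0.23, adjusted p = 0.000286), or 2.69-fold. With TG the same comparison ran from 8.03, 8.33, 7.34 and 7.73 CPM in siCTRL to 2.31, 1.74, 3.60 and 3.05 CPM in siMOCOS. All 4 knockdown libraries were again below, log2 -1.53 (SE 0.22, adjusted p = 9.98e-05), or 2.88-fold. Both falls were called without libraries 1 and 2 (-1.46 and -1.22) and without 3 and 4 (-1.38 and -1.93). TG in siCTRL cells raised UGT2B15 by log2 0.59 (SE 0.22, adjusted p = 0.0385), with no overlap between the groups. This call was lost when siCTRL replicate 2 (0.113), 3 (0.0762) or 4 (0.0516) was left out, and likewise for siCTRL TG replicate 1 (0.0806), 2 (0.0872), 3 (0.0509) or 4 (0.0694). In siMOCOS cells the TG change was 0.49 (SE 0.23, adjusted p = 0.105). It was called without siMOCOS TG replicate 2 (0.63, adjusted p = 0.0337) and without libraries 1 and 2 (0.83, adjusted p = 0.0311).

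In LNCaP the UGT2B15 siCTRL libraries stood at 33.1, 24.1, 27.9 and 22.7 CPM and the siMOCOS libraries at 13.6, 11.1, 27.6 and 25.1 CPM. Libraries 1 and 2 were low and libraries 3 and 4 lay among the controls, and the change over all 4 was not called (log2 -0.52, 95% interval -1.12 to 0.08, adjusted p = 0.232). With TG siMOCOS stood at 11.9, 11.8, 23.3 and 25.4 CPM against 27.7, 26.3, 33.2 and 29.2 CPM in siCTRL. These groups did not overlap and the change was not called (-0.66, 95% interval -1.25 to -0.08, adjusted p = 0.0960), but it was without siMOCOS TG replicate 3 (0.0473) or 4 (0.0320). The difference in knockdown effect between the lines was 0.93 (95% interval 0.14 to 1.72, adjusted p = 0.330). So the fall called in C4-2B is not shown to differ from the change in LNCaP. TG in siCTRL cells of LNCaP gave 0.11 (95% interval -0.47 to 0.69).

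UGT2B17 was scarce in C4-2B and plentiful in LNCaP. The C4-2B siCTRL libraries held 35, 12, 12 and 24 counts, or 1.95, 0.999, 0.783 and 1.72 CPM. Those of LNCaP stood at 45.3, 38.8, 37.5 and 34.2 CPM, log2 4.81 higher (SE 0.46, adjusted p = 7.34e-10), or 28-fold. In C4-2B neither TG nor knockdown was called over all libraries, at counts from 5 to 52 per library, and the interval of the knockdown change without TG was wide (-0.86, 95% interval -1.93 to 0.22). Without libraries 3 and 4 that change was called (-1.52, adjusted p = 0.0300), and without 1 and 2 it was -0.40. TG in siMOCOS cells of C4-2B gave 0.94 (95% interval -0.11 to 1.99), which was called without siMOCOS replicate 4 (1.57, adjusted p = 0.0258). TG in siMOCOS cells of LNCaP gave -0.45, called without libraries 1 and 2 (-0.58, adjusted p = 0.00815). In LNCaP the siMOCOS libraries stood at 14, 13.5, 37.8 and 45.0 CPM without TG and 11.5, 11.8, 30.5 and 23.9 CPM with TG. The siCTRL libraries with TG stood at 29.7, 28.5, 34.3 and 28.4 CPM. Libraries 1 and 2 were below every control in both TG states. Libraries 3 and 4 were not below the controls without TG, but with TG library 4 was. The changes over all 4 were -0.54 (SE 0.35, adjusted p = 0.314) and -0.62 (SE 0.35, adjusted p = 0.211).

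UGT2B17 made up 59.2% ± 2.07 of the 2 genes' summed CPM in LNCaP siCTRL cells and 20.7% ± 5.39 in C4-2B siCTRL cells (SD, n = 4 each). With TG the share was 51.0% ± 1.23 in LNCaP and 14.7% ± 1.76 in C4-2B. The split between these copies rests on the authors' counting. With the counts of both genes added, the knockdown change in C4-2B was log2 -1.29 without TG (adjusted p = 0.00253) and -1.14 with TG (adjusted p = 0.00476), both called. The change with TG in siCTRL cells of C4-2B, called for UGT2B15 alone, was not called for the sum (0.48, adjusted p = 0.138).

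Of 19 listed genes of other glucuronosyltransferases and of UDP-glucuronate supply, 5 were tested in each line. UGDH, which makes the UDP-glucuronic acid that these enzymes use, fell with knockdown in both lines. Its change was log2 -1.23 in C4-2B (SE 0.15, from a mean of 207 to 89.3 CPM, adjusted p = 1.30e-05) and -1.21 in LNCaP (SE 0.17, from 264 to 115 CPM, adjusted p = 0.000138). With TG present it was -0.69 (adjusted p = 0.00300) and -0.89 (adjusted p = 0.00152). UGT8, which adds galactose to ceramide, fell with knockdown by -1.87 in C4-2B (SE 0.18, adjusted p = 1.38e-06) and -1.90 in LNCaP (SE 0.25, adjusted p = 6.66e-05). UGDH and UGT8 were the only 2 of the 5 called without TG, against 17.2% and 15.7% of all genes. UGT8 also fell with TG, by -0.97 (adjusted p = 0.000356) and -1.40 (adjusted p = 0.000113). At baseline it was lower in LNCaP, unlike UGT2B15 and UGT2B17 (log2 -3.05, SE 0.20, adjusted p = 2.76e-13). UGT2B11, another member of the UGT2B cluster, was scarce and higher in LNCaP (3.44, means of 1.35 and 0.119 CPM, adjusted p = 6.00e-05), and its counts are open to the same division among copies.

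SRD5A1 was higher in LNCaP and moved little otherwise. The C4-2B siCTRL libraries stood at 10.3, 8.16, 9.79 and 9.63 CPM and those of LNCaP at 19.5, 19.4, 17.5 and 19.7 CPM. The groups were well apart, log2 1.00 (SE 0.13, adjusted p = 1.97e-07). With TG in siMOCOS cells of C4-2B it rose from 10.1, 10.8, 10.6 and 10.6 CPM to 14.9, 11.5, 14.9 and 12.1 CPM, log2 0.37 (SE 0.14, adjusted p = 0.0388). The call was lost without siCTRL replicate 3 (0.0525) or 4 (0.0545), siCTRL TG replicate 2 (0.0505), siMOCOS replicate 1 (0.0836), 2 (0.0610), 3 (0.0759) or 4 (0.0717) or siMOCOS TG replicate 1 (0.126) or 3 (0.102), and without libraries 1 and 2 (0.128) or 3 and 4 (0.165). In siCTRL cells the TG change was 0.23 in C4-2B (95% interval -0.06 to 0.52) and -0.06 in LNCaP (-0.32 to 0.20). Knockdown without TG gave 0.14 (95% interval -0.15 to 0.43) and -0.10 (-0.37 to 0.16). Libraries 1 and 2 were below 3 and 4 in LNCaP with TG and overlapped them in the other 3 siMOCOS groups.

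SRD5A3 split by siMOCOS library in every group. In C4-2B the siCTRL libraries stood at 36.4, 40.3, 33.2 and 30.6 CPM and the siMOCOS libraries at 18, 15.2, 32.5 and 31 CPM. In LNCaP the siCTRL libraries stood at 54.0, 56.3, 49.6 and 64.5 CPM and the siMOCOS libraries at 27.5, 24.7, 52.0 and 49.6 CPM. Libraries 1 and 2 were the low ones both times. With TG the siMOCOS libraries stood at 9.39, 8.86, 27.1 and 24.7 CPM in C4-2B, beside 23.5, 23.7, 26.4 and 24.1 CPM in siCTRL. In LNCaP with TG they stood at 16.4, 16.8, 42 and 34.8 CPM, beside 39.6, 40.3, 48.5 and 38.6 CPM. As a share of the matched siCTRL mean, libraries 1 and 2 lay between 36.2% and 51.1% in the 4 siMOCOS groups, and libraries 3 and 4 between 83.4% and 110.6%.

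The knockdown changes of SRD5A3 over all 4 libraries were not called. They were log2 -0.55 (SE 0.31, adjusted p = 0.258) and -0.46 (SE 0.31, adjusted p = 0.355) in C4-2B without and with TG, and -0.57 (SE 0.28, adjusted p = 0.177) and -0.58 (SE 0.28, adjusted p = 0.141) in LNCaP. Without siMOCOS libraries 3 and 4 they were -1.08 (adjusted p = 0.000109) and -1.40 (adjusted p = 1.44e-05) in C4-2B and -1.08 (adjusted p = 2.24e-05) and -1.35 (adjusted p = 1.52e-06) in LNCaP. Without libraries 1 and 2 they were -0.15, 0.10, -0.12 and -0.13 in the same order, none called. With LNCaP siMOCOS TG replicate 3 alone left out, the change there was called (-0.89, adjusted p = 0.0244). The SD of log2 CPM within a group was 0.077 to 0.17 in siCTRL groups and 0.55 to 0.86 in siMOCOS groups.

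With TG in siCTRL cells SRD5A3 was lower in each TG library than in any control in both lines, but the change was not called. It was log2 -0.53 in C4-2B (95% interval -1.19 to 0.13, adjusted p = 0.189) and -0.42 in LNCaP (95% interval -1.01 to 0.16, adjusted p = 0.219). In siMOCOS cells the TG change was -0.44 in C4-2B and -0.43 in LNCaP, not called. Without libraries 3 and 4 it was called in both (-0.82, adjusted p = 0.00239, and -0.64, adjusted p = 0.00214). In LNCaP it was also called without 1 and 2 (-0.38, adjusted p = 0.0413) and without siMOCOS TG replicate 3 (-0.73, adjusted p = 0.0370). The fit shares 1 estimate of spread over the 4 groups of a line, which includes the split siMOCOS libraries. At baseline LNCaP was above C4-2B in every library, log2 0.67 (95% interval 0.03 to 1.32), which was not called either (adjusted p = 0.0860).

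Dolichol pathway partners of SRD5A3 were called in both directions with TG in siCTRL cells. Of 11 tested, 1 rose and 1 fell in C4-2B and 5 rose and 1 fell in LNCaP, with medians of 0.02 and 0.22. Of all genes 40.5% were called in C4-2B and 49.7% in LNCaP. DHDDS, a subunit of the prenyltransferase that builds the chain, rose by log2 0.74 (SE 0.14, adjusted p = 0.000516) and 0.95 (SE 0.13, adjusted p = 1.04e-05). DOLK, which phosphorylates dolichol, fell by -1.44 (SE 0.22, adjusted p = 5.84e-05) and -1.49 (SE 0.17, adjusted p = 9.82e-07). Knockdown without TG called none of the 11 by edgeR in C4-2B and 1, lower, in LNCaP, against 17.2% and 15.7% of all genes.

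**Figure D2:**
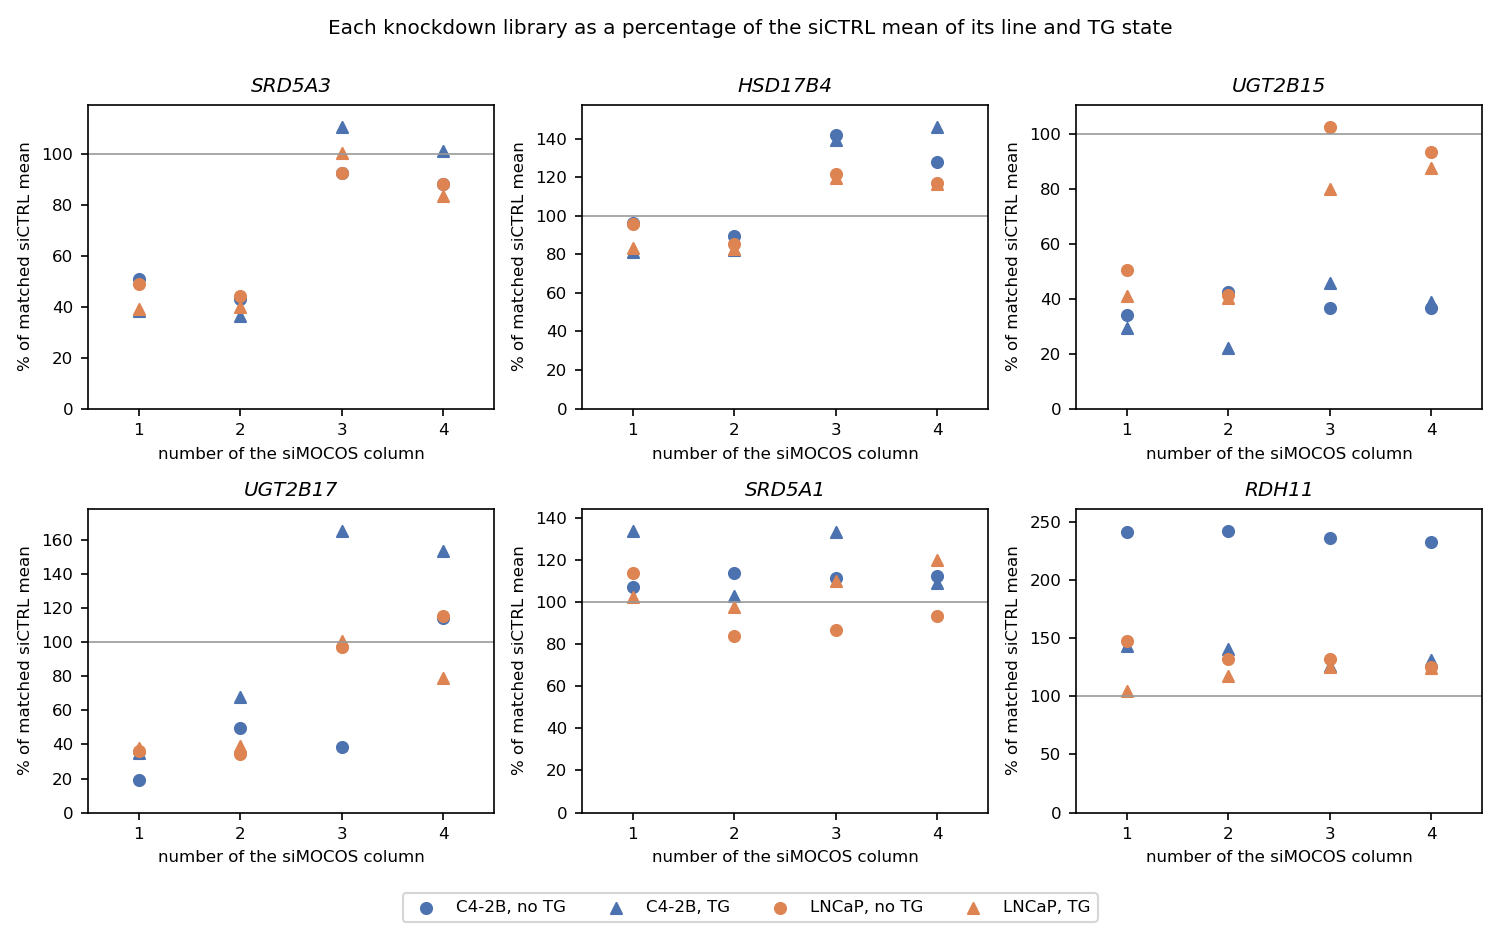
For 6 of the genes, each siMOCOS library (x axis, library number 1 to 4) as a percentage of the siCTRL mean of its line and TG state (y axis, from 0; the line marks 100%), C4-2B in blue and LNCaP in orange, circles without TG and triangles with TG. SRD5A3 is at or below 51.1% in libraries 1 and 2 and at or above 83.4% in 3 and 4 in all 4 groups, HSD17B4 splits the same way around 100%, and RDH11 is above 100% in all 16 libraries.

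HSD17B4 had the same split between siMOCOS libraries. In C4-2B the siCTRL libraries stood at 420, 379, 373 and 358 CPM and the siMOCOS libraries at 368, 343, 543 and 489 CPM. With TG they were 385, 375, 356 and 427 CPM and 313, 318, 537 and 563 CPM. Libraries 3 and 4 were above every control and libraries 1 and 2 were among or below them. In LNCaP siCTRL stood at 592, 570, 551 and 505 CPM and siMOCOS at 530, 473, 675 and 647 CPM. With TG these were 500, 533, 556 and 529 CPM and 441, 440, 633 and 618 CPM, the same order. Libraries 1 and 2 lay at 81.2% to 96.1% of the siCTRL mean and libraries 3 and 4 at 116.7% to 146.0%.

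Over all 4 libraries the knockdown changes of HSD17B4 were close to 0 and not called. They were log2 0.18 (95% interval -0.21 to 0.57) and 0.19 (-0.20 to 0.58) in C4-2B and 0.05 (-0.23 to 0.33) and 0.03 (-0.25 to 0.31) in LNCaP, without and with TG. Without libraries 1 and 2 the change was called higher in C4-2B (0.42, adjusted p = 0.0241, and 0.53, adjusted p = 0.00556) and in LNCaP without TG (0.28, adjusted p = 0.0292). Without libraries 3 and 4 it was called lower in LNCaP with TG (-0.28, adjusted p = 0.0235), the opposite direction. TG in siCTRL cells gave 0.01 (95% interval -0.38 to 0.40) in C4-2B and -0.06 (-0.34 to 0.22) in LNCaP. LNCaP was higher than C4-2B at baseline by 0.54 (SE 0.17, adjusted p = 0.0111).

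Of 14 peroxisomal beta-oxidation partners of HSD17B4, 6 fell with TG in siCTRL cells of C4-2B and 9 in LNCaP, where 19.3% and 25.1% of all genes fell. By edgeR none rose, and the other 8 and 5 were not called. The list's median was -0.50 and -0.41. SCP2, the thiolase and sterol carrier of the pathway, fell by log2 -0.94 (SE 0.13, adjusted p = 3.54e-05) and -1.10 (SE 0.08, adjusted p = 1.10e-08). AMACR, the racemase that prepares branched acids for it and a marker of prostate cancer, fell by -1.10 (adjusted p = 0.000114) and -1.23 (adjusted p = 2.27e-06). ABCD3, a transporter of acyl chains into the peroxisome, fell by -1.18 (adjusted p = 1.65e-05) and -1.11 (adjusted p = 4.66e-07). With knockdown without TG 9.09% of all genes rose and 8.14% fell in C4-2B, and 6% and 9.73% in LNCaP. Of the list 5 rose and 1 fell in C4-2B and 5 rose and 2 fell in LNCaP. SCP2 rose there by 1.19 (SE 0.13, adjusted p = 6.22e-06) and 0.60 (SE 0.08, adjusted p = 9.84e-05), and CROT, the carnitine acyltransferase that exports the products, by 2.80 (SE 0.34, adjusted p = 1.53e-05) and 1.45 (SE 0.21, adjusted p = 0.000178).

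HSD17B8 and HSD17B11 were low and were called in no comparison. HSD17B8 averaged 7.92 ± 1.19 CPM in C4-2B and 7.86 ± 1.63 CPM in LNCaP siCTRL cells (SD, n = 4 each). Its largest change with TG or knockdown was with TG in siCTRL cells of LNCaP, from 5.69, 7.94, 8.17 and 9.62 CPM to 5.34, 7.60, 5.79 and 3.28 CPM. The groups overlapped, and the change was log2 -0.50 (95% interval -0.97 to -0.04, adjusted p = 0.0683). It was called without siCTRL replicate 1 (0.0304), without siCTRL TG replicate 2 (0.0224) and with an offset for GC content and transcript length (0.0198). HSD17B11 averaged 4.58 ± 0.737 CPM in C4-2B and 3.26 ± 0.284 CPM in LNCaP siCTRL cells, log2 -0.49 (95% interval -1.03 to 0.05, adjusted p = 0.138), with no overlap. Its counts ran from 15 to 140 per library, and LNCaP siMOCOS TG replicate 1 held the fewest, at 0.735 CPM against 2.28 to 2.97 CPM in the other 3 of its group.

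Lists of genes around these 2 were followed as well, with 40.5% of all genes called with TG in C4-2B and 49.7% in LNCaP. Of 9 tested partners of HSD17B8 in mitochondrial fatty acid synthesis, 3 rose and 1 fell in C4-2B and 2 rose and 2 fell in LNCaP. OXSM, the ketoacyl synthase of the pathway, rose by log2 0.61 in each line (SE 0.11 in both, adjusted p = 0.000244 and 0.000169), and MECR, its enoyl reductase, fell by -1.04 (adjusted p = 0.00105) and -0.55 (adjusted p = 0.00275). LIAS, which makes lipoic acid from the pathway's product, was the 1 gene of this list called with knockdown. Without TG it fell by -0.57 (adjusted p = 0.0222) in C4-2B and -0.77 (adjusted p = 0.00145) in LNCaP, the former not called without siCTRL replicate 1 (0.0569) or 3 (0.0693) or siMOCOS replicate 1 (0.0746) or 4 (0.0608), or without libraries 1 and 2 (0.114). With TG its log2 changes were -1.05 (adjusted p = 0.000189) and -1.14 (adjusted p = 2.43e-05). Of the lipid droplet genes, 3 of 10 fell in C4-2B and 5 of 11 in LNCaP with TG, and none rose by edgeR. Knockdown without TG called none of them in C4-2B (17.2% of all genes) and 3, all lower, in LNCaP (15.7%). Knockdown with TG called 2, both higher, in C4-2B (16.8%) and 1, lower, in LNCaP (21.9%). DGAT2, which completes triglyceride synthesis, fell with TG in siCTRL cells from a mean of 12 to 2.09 CPM in C4-2B (-2.53, SE 0.26, adjusted p = 1.07e-06). In LNCaP its mean fell from 15.1 to 2.96 CPM (-2.36, SE 0.18, adjusted p = 9.49e-09).

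**Figure D3:**
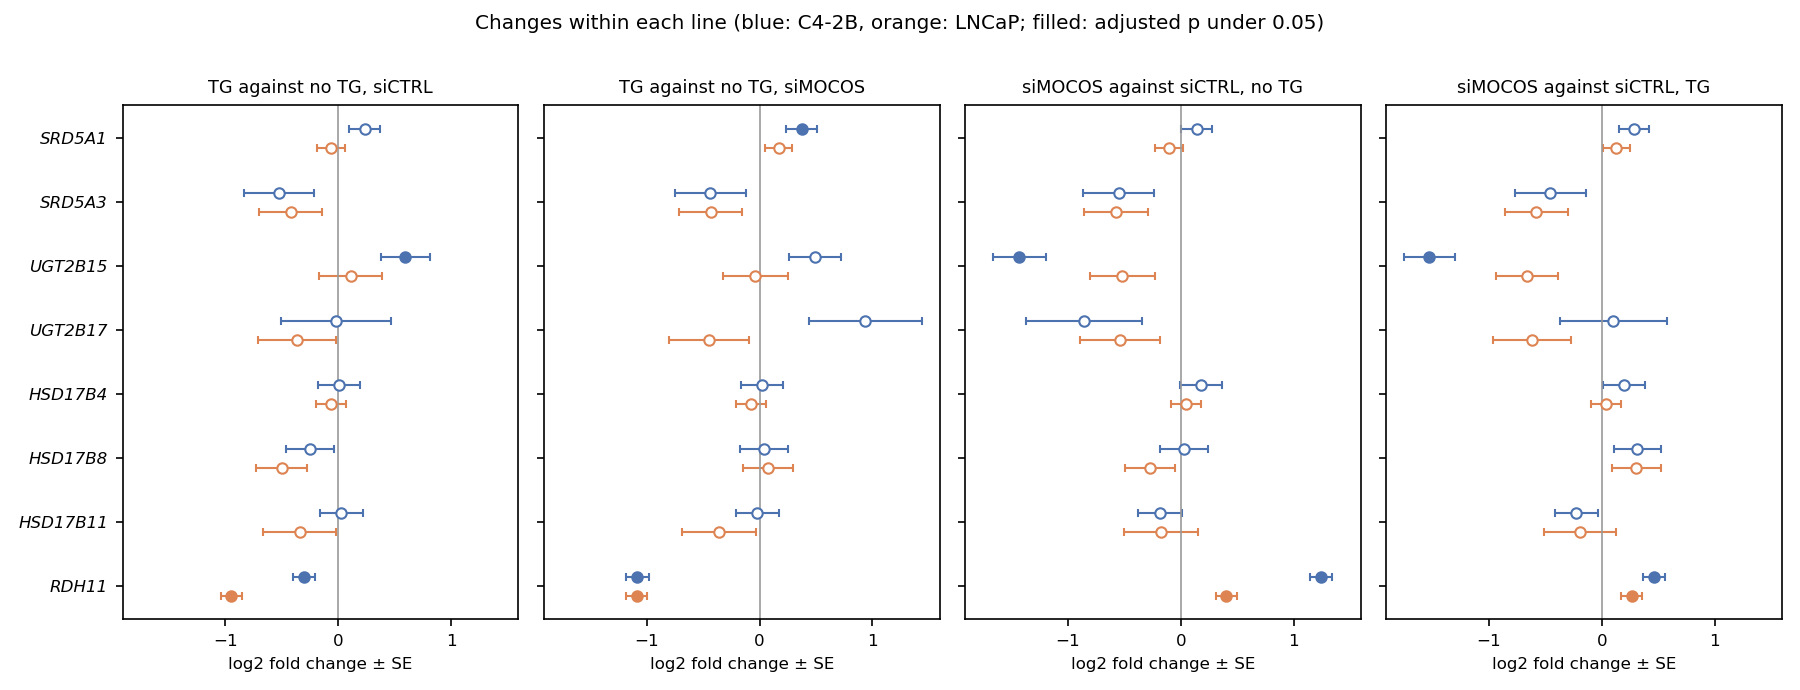
Log2 fold change with its SE (x axis) of each of the 8 genes (y axis) for TG in siCTRL cells, TG in siMOCOS cells, knockdown without TG and knockdown with TG, C4-2B in blue and LNCaP in orange. Filled points passed an adjusted p under 0.05: RDH11 is filled in all 8 comparisons, UGT2B15 in 3 and SRD5A1 in 1, and the other 5 genes in none.

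At baseline LNCaP was higher than C4-2B for 5 of the 8 genes and lower for 0, against a background of 41.2% of genes called, 21.1% higher and 20.1% lower. The 5 were UGT2B17 (log2 4.81), UGT2B15 (2.37, SE 0.27, 5.16-fold, adjusted p = 2.95e-08), RDH11 (1.64, SE 0.09, 3.13-fold, adjusted p = 7.27e-15), SRD5A1 (1.00) and HSD17B4 (0.54). Their siCTRL libraries did not overlap between the lines, but neither did those of SRD5A3 and HSD17B11, which were not called. The lack of overlap thus does not set the 5 apart, and its share over all genes is not given here. The median of the 8 was 0.84, where that of all genes was 0.0010. LNCaP and C4-2B are 1 line each, so a difference between them is between these cultures.

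Of the other androgen and steroid enzymes, 19 were tested in C4-2B and 20 in LNCaP. In C4-2B 1 of them rose with TG in siCTRL cells while 6 fell, and in LNCaP 4 rose while 7 fell. Over all genes 21.2% rose and 19.3% fell in C4-2B, and 24.6% and 25.1% in LNCaP. HSD17B7, a dehydrogenase that also serves cholesterol synthesis, rose by log2 1.00 (SE 0.24, adjusted p = 0.00366) and 0.85 (SE 0.12, adjusted p = 1.55e-05). CYB5A, the cytochrome that aids the androgen-forming lyase step, fell by -0.64 (adjusted p = 0.000586) and -0.65 (adjusted p = 1.85e-05). With knockdown without TG 3 rose and 0 fell in each line. Over all genes 9.09% rose and 8.14% fell in C4-2B, and 6% and 9.73% in LNCaP. CYP11A1, which makes pregnenolone from cholesterol, rose by 2.08 in C4-2B (SE 0.21, from a mean of 3.64 to 15.6 CPM, adjusted p = 1.77e-06) and 2.59 in LNCaP (SE 0.38, from 0.950 to 5.88 CPM, adjusted p = 0.000155). CYP3A5, which hydroxylates testosterone, rose by 1.44 (adjusted p = 0.00829) and 1.45 (adjusted p = 0.0164).

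The split of the siMOCOS libraries was not particular to these genes. Over all genes tested, 1410 of 14628 (9.64%) had libraries 1 and 2 below 3 and 4 in all 4 siMOCOS groups, and SRD5A3 and HSD17B4 were 2 of them. Another 1339 (9.15%) had them above in all 4, with 0 of the 8. Without libraries 1 and 2, 3 of the 8 genes were called with knockdown in C4-2B without TG (background 14.9%) and 3 with TG (17%), and 2 (20%) and 0 (16.8%) in LNCaP. Without libraries 3 and 4 the counts were 4 (30.6%) and 3 (30.7%) in C4-2B and 4 (23.9%) and 4 (39.1%) in LNCaP. The 4 in LNCaP with TG were all lower: SRD5A3, UGT2B15 (log2 -1.31), UGT2B17 (-1.39) and HSD17B4. Without TG there they were SRD5A3, UGT2B15 (-1.11) and UGT2B17 (-1.48), which were lower, and RDH11, which was higher. By edgeR RDH11 was not called in LNCaP with TG under either omission (0.0552 and 0.346).

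Among themselves, SRD5A3 and HSD17B4 deviated most alike. After the mean of each group was taken out, Pearson's r of their log2 CPM over the 32 libraries was 0.927. It was 0.760 for SRD5A3 and UGT2B17, 0.764 for UGT2B17 and HSD17B4 and 0.728 for UGT2B15 and UGT2B17, and these points share the split of the siMOCOS libraries. RDH11 lay between -0.317 and 0.354 with each of the other 7. Over 10487 other genes averaging at least 5 CPM (10488 for HSD17B11), those most like RDH11 across the 32 libraries were GLYATL1 (r = 0.963), CLDN8 and FAM210B. Those most like SRD5A3 were CASC4 (0.968), EIF2AK1 and C15orf38, and those most like HSD17B4 were STX6 (0.941), PPAT and LOC388692. For UGT2B15 they were RNF145 (0.950), IFIT2 and ZNF256, for UGT2B17 MAPRE2 (0.977), BMPR1B and CDH26, and for SRD5A1 OR51E2 (0.939), TMEM106B and DNAJC12. HSD17B8 and HSD17B11 had weaker matches, RNF5 (0.814), TMEM258 and AKR1A1 for the former and ITGA2 (0.807), CYP2J2 and AP3B1 for the latter. The points share the difference between the lines and the treatments, so these are descriptions of pattern only.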

How the data were processed

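Polyadenylated RNA of LNCaP and C4-2B cells was sequenced in 32 libraries. The authors deposited 1 table of estimated counts per gene, of which 99.9987% of the values above 0 are not whole. Per the submitters' processing notes the tools included Salmon 1.5.2, STAR 2.6.1d, cutadapt 3.4, Trim Galore 0.6.7 and FastQC 0.11.9, and hg38 was the build. The gene annotation is not given in the sources used here. Estimated counts were rounded, and of symbols in several rows (61) none is one of the 8 genes. Genes with low counts were removed with edgeR's default filter, which left 14127 genes in C4-2B, 13806 in LNCaP and 14628 in both lines together.

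Tests used edgeR 4.0.16 in R 4.3.3: TMM scaling and the quasi-likelihood test, with the 4 groups of a line in 1 fit (12 residual degrees of freedom). Differences between lines came from 1 fit of all 32 libraries (24). The p-values were adjusted by Benjamini-Hochberg over all genes tested, and a call is an adjusted p under 0.05. SEs are the log2 change over the square root of its F. Intervals are 95%. The design names the samples biological replicates. The 8 genes and the gene lists were chosen with earlier results of these data known. Partner genes were named from the called genes of each list with the smallest adjusted p, at most 3 per list and comparison. Not all of these are described: those whose call was often lost when a library was left out were passed over after their values were seen. One of the lists is not reported here. Genes of like pattern were the 3 with the highest Pearson's r of log2 CPM. The promoters and the UGT stretch shown were chosen for the genes the results turn on. Alternatives were DESeq2 1.42.0, limma 3.58.1 (voom), RLE scaling, no filter and a GC and length offset (mgcv 1.9.3). Others were a replicate block fitted on siCTRL libraries alone, UGT2B15 and UGT2B17 summed, 1 fit for all libraries and each library left out. Leaving out siMOCOS libraries 1 and 2, or 3 and 4, was chosen after seeing the data. The fits were tested on simulated data. Counting error rises as counts fall, so UGT2B17 in C4-2B and HSD17B11 are the least precise of the 8.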

Additional observations from a re-analysis of the deposited data

Results flagged for a closer look

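SRD5A1 in LNCaP siCTRL replicate 3 stood at 17.5 CPM, apart from the other 3 libraries of the group at 19.4 to 19.7 CPM. It was the single such case among the 8 genes in 8 groups, and chance alone sets about 1 in 20 groups apart.

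RDH11 gave each of the differences between effects. In C4-2B the effect of knockdown in TG-treated cells less its effect in untreated cells was log2 -0.78. Between the lines, LNCaP minus C4-2B, the response to TG in siCTRL cells differed by -0.65 and the response to knockdown without TG by -0.83. Each of the 3 was called by edgeR's test of the difference itself. The first lost its call without most of the libraries left out in turn, as given above. Its value then stayed between -0.86 and -0.74.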

How the results depend on the processing

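Over the 8 genes in 13 comparisons, 1994 values were unchanged in call when a library was left out, 46 lost a call and 8 gained one. Unchanged values were called in the same direction in both fits or in neither, so an uncalled value could change sign. Under the other settings 677 were unchanged in call, 12 lost a call, 6 gained one and 1 turned. With siMOCOS libraries 1 and 2, or 3 and 4, left out, 105 were unchanged in call, 5 lost a call, 17 gained one and 1 turned. A value turned if its sign changed and either fit called it. The 2 that turned were UGT2B17 with knockdown and TG in C4-2B, -1.14 with UGT2B15 added against 0.10 alone, and HSD17B4 with knockdown and TG in LNCaP, -0.28 without libraries 3 and 4 against 0.03. The cause was not tested, apart from the summing itself. Partner genes, at most 3 called per list and comparison, kept their call in 196 values without a pair and lost it in 26. When a library was left out, 3132 of their values kept the call and 116 lost it.

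Of the 8 genes, the number called with TG in siCTRL cells of C4-2B, 2 by edgeR as described, was 1 with no filter, with UGT2B15 and UGT2B17 summed and with all 32 libraries in 1 fit. In siMOCOS cells of C4-2B it was 1 with RLE scaling and 1 with no filter. With knockdown and TG in LNCaP it was 0 with DESeq2, RLE scaling, no filter and all 32 libraries, and 2 with limma voom. The interaction in C4-2B called 0 with no filter. With TG in LNCaP the GC and length offset called 2. Without libraries 1 and 2 the numbers were 0 for the interaction in C4-2B, 0 for knockdown with TG and 2 for knockdown without TG in LNCaP, and 3 for TG in siMOCOS cells of LNCaP. Without 3 and 4 they were 4 for knockdown without TG in C4-2B, 4 for each knockdown comparison in LNCaP and 2 for TG in siMOCOS cells of LNCaP.

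Over all genes the interaction in C4-2B (10 called) gave 84 with DESeq2, 6 with limma voom, 6 with no filter, 94 with the GC and length offset, 44 with all 32 libraries, 1 without libraries 1 and 2 and 212 without 3 and 4. In LNCaP (1 called) it gave 56 with DESeq2, 29 with the offset, 19 without 1 and 2 and 328 without 3 and 4. Without 3 and 4 knockdown called 4414 genes without TG and 4431 with TG in C4-2B, and 3368 and 5524 in LNCaP. The line difference in TG response (124) gave 190 with DESeq2 and 78 with no filter, and that in knockdown response (23) gave 100 and 12.

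With a library left out, the genes called ranged from 1 to 11 for the interaction in C4-2B, 0 to 1 in LNCaP, 1925 to 3454 for knockdown with TG in LNCaP, 1392 to 2212 for knockdown without TG in LNCaP, 11 to 35 for the line difference in knockdown response and 77 to 128 for that in TG response. Of the 8 genes, 0 to 1 were called for the interaction in C4-2B, 0 to 2 for knockdown with TG in LNCaP, 0 to 2 for TG in siCTRL and 1 to 3 in siMOCOS cells of C4-2B, and 1 to 2 for TG in either kind of cell of LNCaP.

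Replicate numbers are shared between siCTRL groups, but deviations of same-numbered libraries correlated at -0.35 to 0.21, so the numbers were not taken as a pairing, and 1 of the 8 libraries correlated best with its own number. The replicate number was entered as a block in a fit of the siCTRL libraries of a line alone. The siMOCOS libraries thus left the estimate of spread as the block entered, and these changes were not tested apart. In that fit TG called 1 of the 8 genes in C4-2B, SRD5A3 (-0.49, adjusted p = 0.0312). TG called neither RDH11 (-0.27, adjusted p = 0.149) nor UGT2B15 (0.65, adjusted p = 0.0517). In LNCaP it called 3, which were RDH11, SRD5A3 (-0.37, adjusted p = 0.0135) and UGT2B17 (-0.31, adjusted p = 0.0262). Low counts limit UGT2B17 in C4-2B and HSD17B11 most.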
